A study of Mus musculus with 16 samples.

Results

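The collagen genes described here are the 44 protein-coding genes whose symbol is Col followed by a type number, the letter a and a chain number, out of 53465 genes in the count table, of which 22040 are protein coding. By the structures their proteins build, 11 are fibrillar, 6 belong to the type IV basement membrane network, 6 to the type VI beaded filament, 9 to the FACIT group that decorates fibrils, 3 to hexagonal networks, 2 to the multiplexins and 4 to the transmembrane collagens. The last 3, Col7a1, Col26a1 and Col28a1, were kept as a group of anchoring fibril and other collagens. The symbol rule itself uses no expression value.

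The samples were lumbar dorsal root ganglia (DRG) and the dorsal part of the lumbar spinal cord of female C57BL/6J mice, 8 weeks old at surgery. The mice had received bilateral spared nerve injury (SNI), in which branches of the sciatic nerve are cut and 1 branch is left intact, or bilateral sham surgery, and tissue was taken after 30 days. Each replicate was a pool of 10 animals and each of the 4 groups (DRG sham, DRG SNI, spinal cord sham, spinal cord SNI) had 2 replicates. Each of the 8 lysates gave 1 library of ribosome footprints and 1 of poly(A)+ mRNA, 16 in all. Footprints are the mRNA fragments protected by ribosomes, and translational efficiency (TE) is the footprint level of a gene over its mRNA level in the same lysate. Both tissues were whole pieces, so fewer cells of a type and less RNA per cell cannot be told apart in any value below.

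Collagens are the main structural proteins of the extracellular matrix, built from chains in which glycine recurs at every 3rd residue over long stretches, so that the chains can wind around each other. In peripheral nerve and ganglia, fibrillar types I, III and V form the connective tissue of the endoneurium, perineurium and epineurium, while type IV lies in the basement membranes around Schwann cells, satellite glia and vessels. In the brain and spinal cord, collagen is largely held by the meninges and the vessel walls. Collagen chains are made on ribosomes at the endoplasmic reticulum, hydroxylated and folded there, secreted, trimmed and crosslinked outside the cell.

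Library totals ran from 6898056 to 28553113 reads assigned to genes. Replicate libraries were close. The chi-square of each replicate pair per degree of freedom, a measure of spread beyond counting, was 1.06 to 3.30. It was little above counting noise in the DRG mRNA pairs (1.06 in sham and 1.07 in SNI). The highest values were those of the DRG footprint pairs (3.30 in sham and 2.64 in SNI), which also enter the DRG TE given below. This measure cannot tell libraries of separate pools from repeated libraries of the same pool. The summed mRNA of 9 sensory neuron markers was 5608 to 5769 CPM (reads scaled to a common library size after TMM normalization) in DRG and 125 to 145 CPM in spinal cord, and that of 7 oligodendrocyte markers was 2545 to 2754 CPM in spinal cord. The latter sum was 37.0 and 34.6 CPM in the sham DRG pools and 8.69 and 7.46 CPM in the SNI DRG pools. Collagens took 0.173% and 0.175% of mRNA reads in sham DRG against 0.226% and 0.224% in SNI DRG, and 0.0820% to 0.0864% in spinal cord. Their share of footprints was larger, at 0.363% and 0.362% in sham DRG, 0.427% and 0.424% in SNI DRG and 0.187% to 0.192% in spinal cord.

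The bases around the start codon are shown first, because ribosome loading is compared below and because the most abundant fibrillar chains share a sequence there. Each window holds the 24 bases before the start codon, the start codon and the next 3 bases, read 5′ to 3′ on the coding strand of GRCm38. All 7 windows printed lie within 1 exon, in the end of the 5′ untranslated region and the first codons. Capitals mark the start ATG and, where present, ATGTCT and TAGACATG.

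Col1a1, chr11:94936345-94936374, plus strand: agtctacATGTCTagggtcTAGACATGttc

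Col1a2, chr6:4505816-4505845, plus strand: agtctgcATGTCTaagtggTAGACATGctc

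Col3a1, chr1:45311724-45311753, plus strand: gagtctcATGTCTgatattTAGACATGatg

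Col5a2, chr1:45502909-45502938, minus strand: gacccacATGTCTcatattTAGACATGatg

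Col5a1, chr2:27886792-27886821, plus strand: ccccggcccgcgcaccccgccggcATGgac

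Col5a3, chr9:20814948-20814977, minus strand: cttggtgcaccaggccccgctgggATGaga

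Col12a1, chr9:79715431-79715460, minus strand: aggctgtgagcttgaggcccaaacATGcag

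Col1a1, Col1a2, Col3a1 and Col5a2 share both elements, which face each other as an inverted repeat with an upstream ATG in the first one. The elements were chosen after these windows were seen. Both were found in these 4 of 43 collagen windows and in 4 of the windows of 19532 coding genes, so no other gene had both. ATGTCT was in 25 and TAGACATG in 16 of the 19532, these 4 included in each count. Col1a1 and Col1a2 were identical at 24 of 30 positions, and Col3a1 and Col5a2, neighbours on chromosome 1 with 24614 bases between them, at 26 of 30. The window of Col5a3 holds neither element. A match of letters is a description and says nothing about how the mRNA is translated.

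In the sham tissues most collagens had more mRNA in DRG than in spinal cord. Of the 41 members with a mean of at least 16 reads over the 8 mRNA libraries, 27 were higher in sham DRG (65.9%, against 39.9% of all 16716 genes tested) and 9 were lower (22.0%, against 41.2%), by edgeR's quasi-likelihood test at a Benjamini-Hochberg adjusted p under 0.05. The median difference of the members was 1.04 on the log2 scale. Among the fibrillar collagens 9 of 11 were higher in DRG, as were 4 of 6 type IV, 4 of 6 type VI and both multiplexins.

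The highest mRNA levels per kb of transcript in sham DRG were those of Col1a2 and Col1a1, the chains of type I collagen, at 61.3 ± 1.08 and 42.5 ± 0.0040 CPM per kb (mean ± SD, n = 2). Col3a1, the chain of type III collagen, followed at 24.9 ± 0.190 CPM per kb, and then Col6a2 at 17.8 ± 0.207 and Col6a1 at 15.6 ± 0.620. These 5 neighbours were apart by more than their SD. Col28a1, Col16a1 and Col5a3 came next at 13.1, 12.8 and 12.8 CPM per kb, where neighbours differed by less than the larger of their SDs (0.237 to 0.518). In sham spinal cord Col1a2 was again first, at 27.2 ± 0.117 CPM per kb, and Col25a1 was second at 18.1 ± 1.02, within its SD of Col1a1 at 17.5 ± 0.139.

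The largest difference between the sham tissues was in Col28a1, a collagen known from peripheral nerve, which measured 54.3 and 56.3 CPM in DRG and 1.36 and 1.30 CPM in spinal cord (log2 difference 5.42, SE 0.0975). Col5a3, a chain of type V collagen, was at 77 and 79.1 CPM against 7.94 and 7.64 CPM (3.37, SE 0.0614), and Col24a1 at 27.5 and 27.9 CPM against 3.09 and 2.77 CPM (3.28, SE 0.0983). The 9 members with less mRNA in DRG included the following. Col25a1, a transmembrane collagen of neurons, measured 11.9 and 11.4 CPM in DRG and 49.4 and 45.6 CPM in spinal cord (-1.98, SE 0.0677). Col11a2 and Col9a3, known from cartilage, had log2 differences of -2.01 and -2.66, and Col4a6 of the type IV network one of -3.38. The pools of each tissue did not overlap in any of these 7 genes. All had adjusted p of at most 1.8e-10 in edgeR.

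**Figure D1:**
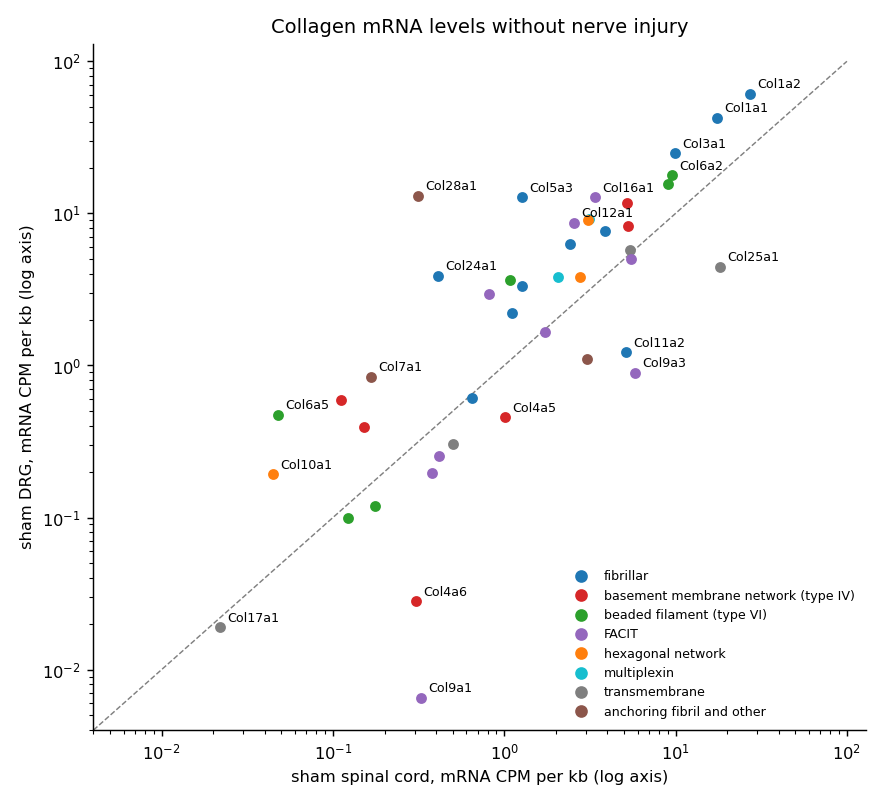
Mean mRNA level of each collagen in sham DRG (vertical axis) against sham spinal cord (horizontal axis), in CPM per kb of transcript on log axes, with 1 point per gene (mean of 2 pools), a colour per class and a dashed line of equal levels. Col28a1, Col5a3 and Col24a1 lie far above the line, and Col25a1, Col11a2 and Col9a3 below it.

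In DRG, collagen mRNA rose after SNI. Of the 36 members with a mean of at least 32 reads over the 4 mRNA libraries, 23 rose (63.9%, against 15.9% of all 14494 genes tested) and 1 fell (2.78%, against 17.0%). The members' median log2 change was 0.27 and that of all genes 0.00. The remaining 12 were not called, and 8 members had too few reads. Most changes were small in size: of the 23, only Col5a3 more than doubled, and only Col5a3 and Col5a2 passed a test against a change of 1.5-fold.

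Fibrillar collagens, which bear the tensile load of connective tissue, rose in 9 of 11 members, with a median of 0.43. Col5a3 (chr9:20770050-20815067, minus strand, GRCm38) led them. It measured 77 and 79.1 CPM in the sham pools and 189 and 184 CPM in the SNI pools, a log2 change of 1.26 (SE 0.0296, adjusted p = 2.0e-28, edgeR). Col5a2, which joins Col5a1 in the main type V molecule, measured 40.1 and 43.4 CPM against 70.3 and 67.6 CPM, a change of 0.73 (SE 0.041, adjusted p = 9.8e-17). Col5a1 measured 26.4 and 29.2 CPM against 38.8 and 37.2 CPM (0.46). So all 3 type V chains rose, without overlap of the pools, and by unequal amounts. Type V collagen is known to start and limit the width of type I fibrils.

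The bulk fibrillar chains moved less. Col3a1 measured 140 and 138 CPM in sham and 198 and 188 CPM in SNI pools (log2 change 0.48). Col1a1 went from 252 and 252 to 310 and 304 CPM (0.29) and Col1a2 from 332 and 323 to 381 and 376 CPM (0.21). In each of these 3 genes both SNI pools were above both sham pools. The fibrillar chains with a shorter helix, Col27a1, at 16.7 and 16.9 against 24.6 and 25.7 CPM (0.58), and Col24a1, at 27.5 and 27.9 against 36.1 and 35.5 CPM (0.37), rose as well. Col2a1, the main collagen of cartilage, was called at 3.31 and 2.95 against 4.33 and 4.13 CPM (0.43, adjusted p = 0.038), and the call was lost when any 1 of the 4 pools was left out. Col11a1 and Col11a2 were not called (-0.03 and 0.06).

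In the basement membrane network, Col4a1 and Col4a2, whose chains form the common type IV molecule, rose together. Col4a1 measured 74.9 and 78.8 CPM in sham and 99.1 and 101 CPM in SNI pools (0.38), and Col4a2 54.1 and 52.8 against 65.5 and 69.1 CPM (0.33). The chains of the specialised type IV molecules were not called, with 0.18 for Col4a4, 0.06 for Col4a5 and -0.28 for Col4a3. The sham pools of Col4a4 held 149 and 80 mRNA reads. Its change was 0.62 without sham replicate 1, so its lack of a call depended on that pool. Col4a5, the next by mRNA reads over both tissues, was at 2.71 and 3.28 CPM against 3.25 and 2.93 CPM in DRG and the pools overlapped.

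Col4a1 and Col4a2 lie head to head, and their RefSeq starts on GRCm38.p6 overlap by the first bases of both transcripts, 21 bases from start to start. The region is shown because both genes of the pair moved in the same direction. Its 30 bases lie at chr8:11312801-11312830, plus strand, and capitals mark GGGCGG:

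Col4a1 and Col4a2 start region: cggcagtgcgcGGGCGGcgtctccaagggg

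GGGCGG, searched on both strands, was in 23 of 38 collagen promoters and in 35.7% of all 32851 promoters of the same length (250 bases before to 50 after the start), and promoters were found for 35 of the 44 genes. Without strand in the libraries, reads in the overlap of this pair cannot be assigned to one gene.

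In type VI, which forms beaded filaments next to basement membranes, the 3 main chains rose. Col6a1 measured 62.2 and 65.8 CPM against 83.9 and 79.9 CPM (0.36), Col6a2 69.9 and 71.0 against 86.9 and 90.4 CPM (0.33) and Col6a3 35.8 and 38.3 against 42.3 and 44.3 CPM (0.22). In each the SNI pools were the higher ones. Both multiplexins of vessel and nerve basement membranes rose, Col18a1 from 22.6 and 19.8 to 31.7 and 32.3 CPM (0.59) and Col15a1 from 45.2 and 49.8 to 55.4 and 59.3 CPM (0.27). Of the hexagonal network, Col8a1 rose from 44.0 and 48.1 to 54.2 and 55.3 CPM (0.25) and Col8a2 from 17.7 and 15.6 to 20.0 and 20.4 CPM (0.27, lost without sham replicate 2 at adjusted p = 0.113), while Col10a1, of hypertrophic cartilage, had at most 0.702 CPM in any DRG mRNA library and was not tested.

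The FACIT group was mixed and had a median of -0.06 over 7 tested members. Col16a1 rose from 64.7 and 68.5 to 85.7 and 83.3 CPM (0.35) and Col14a1 was called up (0.22, adjusted p = 0.010), a call lost without sham replicate 1 or SNI replicate 1 (adjusted p up to 0.193). Col12a1, the FACIT with most mRNA, was the 1 member that fell, from 99.4 and 101 to 96.6 and 92.1 CPM (-0.08, SE 0.031, adjusted p = 0.0438). That fall was lost in DESeq2 and when sham replicate 1, sham replicate 2 or SNI replicate 2 was left out. Col9a2, at 15.3 and 13.9 against 16.6 and 15.8 CPM, was not called (0.15), nor were Col9a3, Col19a1 and Col22a1.

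Neither tested transmembrane collagen was called. Col23a1 was at 31.9 and 32.8 CPM in sham and 31.9 and 34.1 CPM in SNI pools (0.02) and Col25a1 at 11.9 and 11.4 against 9.73 and 10.3 CPM (-0.23, adjusted p = 0.070). Col13a1, at 0.835 to 1.56 CPM, had too few reads. All 3 of the remaining group rose: Col7a1, the anchoring fibril collagen, from 7.77 and 7.79 to 10.9 and 11.8 CPM (0.54), Col28a1 from 54.3 and 56.3 to 69.2 and 67.7 CPM (0.31) and Col26a1 from 3.31 and 2.73 to 4.64 and 3.55 CPM (0.45, adjusted p = 0.042). The call of Col26a1 was lost without sham replicate 2 or SNI replicate 1.

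**Figure D2:**
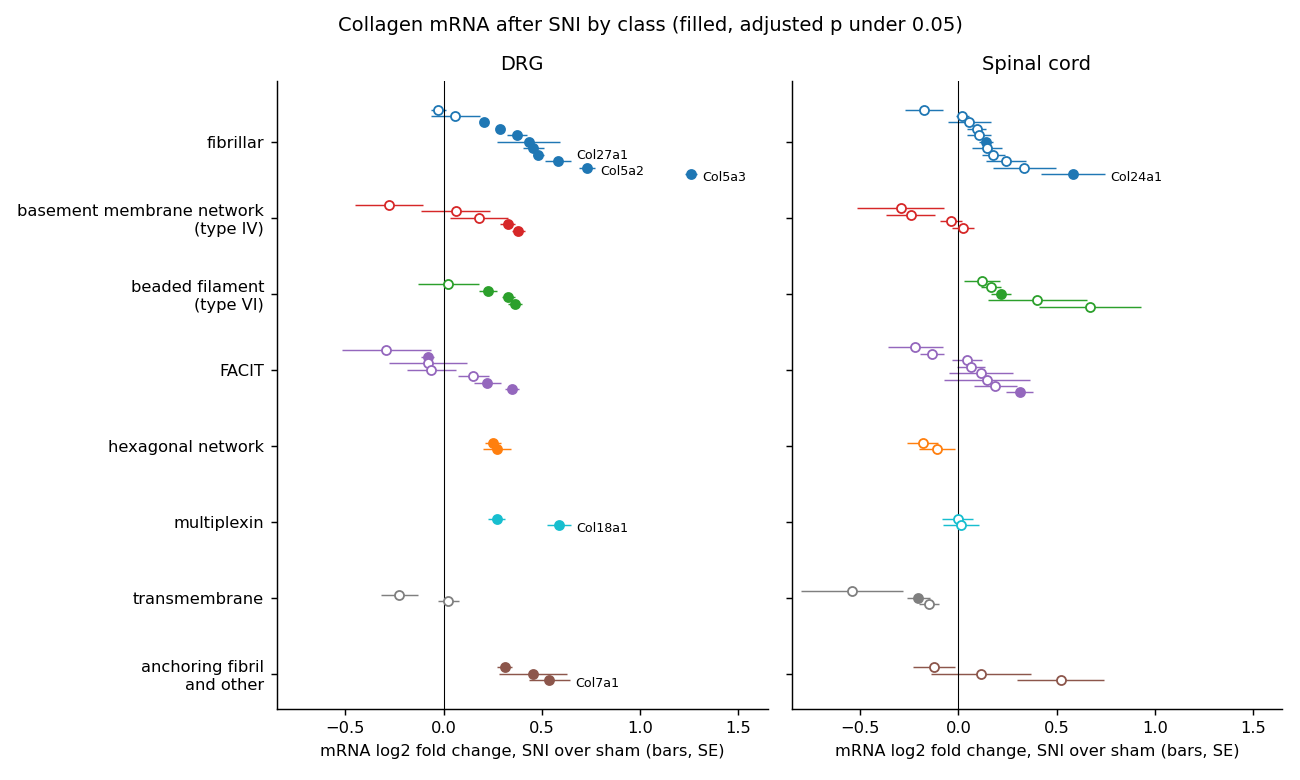
Log2 change of mRNA after SNI for each tested collagen, in DRG and in spinal cord, grouped by class; points are edgeR estimates, bars are 1 SE and filled points passed the adjusted p threshold. In DRG most fibrillar, type VI and multiplexin members lie above 0, with Col5a3 at 1.26 above all others.

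Marker lists of several other cell types also rose in DRG, while those of glia and sensory neurons were mixed. Over all genes tested there, 15.9% rose in mRNA and 17.0% fell. In DRG the mRNA of 12 of 12 skeletal muscle markers rose, and their summed level went from 70.8 and 75.5 to 189 and 187 CPM, with the muscle genes Myh4 at 13.3 and 12.1 against 33.3 and 33.7 CPM, Acta1 at 11.1 and 13.3 against 27.7 and 27.5 CPM and Tnnt3 at 5.82 and 8.18 against 20.4 and 21.9 CPM. Of 7 fibroblast markers 6 rose (summed 568 and 580 against 637 and 642 CPM), as did 6 of 7 macrophage markers (139 and 135 against 189 and 187 CPM), 6 of 8 smooth muscle and pericyte markers (312 and 312 against 338 and 346 CPM), 4 of 8 endothelial (166 and 166 against 182 and 188 CPM), 3 of 5 perineurial (200 and 206 against 235 and 224 CPM) and 3 of 6 meningeal markers (69.5 and 71.2 against 80.8 and 79.6 CPM). Of 5 tested adipocyte markers 1 rose, a share near that of all genes (summed over 6, 30.9 and 33.1 against 64.2 and 61.6 CPM). Of 5 tested cartilage and bone markers 2 fell (summed over 13, 68.2 and 71.3 against 60.8 and 58.3 CPM). Of 7 tested Schwann cell markers 2 rose and 2 fell (summed over 8, 3355 and 3344 against 3236 and 3240 CPM). Of 5 satellite glia markers 2 rose and 2 fell (3958 and 4002 against 4049 and 4061 CPM). Among 9 sensory neuron markers 3 rose and 5 fell. Apart from 1 or 2 cartilage and bone markers per library, each marker of these lists had reads in every DRG mRNA library. The summed fibrillar collagens went from 979 and 979 to 1317 and 1287 CPM. The part of these cell types in the collagen changes was not tested.

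Footprints of collagens rose in DRG as well, mostly by less than the mRNA. Of 32 members with enough footprints, 19 rose (59.4%, against 8.4% of all 13038 genes) and 0 fell, against 8.28% of all genes. At an unadjusted p under 0.05, 20 rose and 0 fell, and DESeq2 also called 0 down. DESeq2 did not keep the rises of Col4a1, Col14a1, Col15a1 and Col16a1. The median log2 change was 0.19. By class, 7 of 11 fibrillar, 2 of 4 type IV, 3 of 4 type VI, 3 of 5 FACIT and both multiplexin members rose.

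Col1a1 footprints measured 776 and 768 CPM in sham and 890 and 878 CPM in SNI pools (log2 change 0.20, SE 0.021) and those of Col3a1 342 and 341 against 424 and 429 CPM (0.32). Col5a1 footprints went from 41.7 and 44.4 to 55.6 and 58.7 CPM (0.40), close to its mRNA change. Col5a3 footprints rose from 47.0 and 47.0 to 64.2 and 59.6 CPM (0.39), against 1.26 for its mRNA. The largest footprint rise was that of Col27a1, from 2.43 and 2.75 to 5.46 and 5.42 CPM (1.03, SE 0.20, adjusted p = 2.2e-05), on 18 and 48 footprint reads in the sham pools. Col12a1 footprints rose from 381 and 392 to 417 and 433 CPM (0.14, adjusted p = 9.2e-04), although its mRNA did not rise. This call was lost without SNI replicate 2 (adjusted p = 0.118). The footprint calls of Col14a1 (without sham replicate 1 or SNI replicate 2), Col15a1 (without sham replicate 2) and Col4a1 (without SNI replicate 1) were lost as well.

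**Figure D3:**
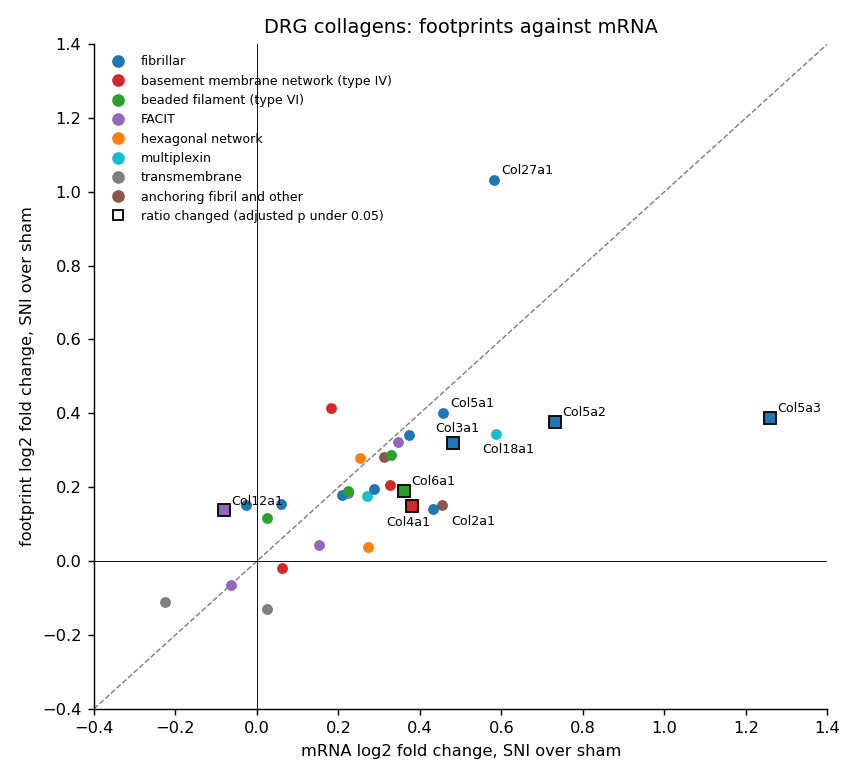
Log2 change of footprints against log2 change of mRNA in DRG after SNI, 1 point per collagen tested in both and a colour per class; squares mark the 6 members called in TE and the dashed line marks equal change, that is, no change of TE. Col5a3 lies far below the line, at 1.26 on the mRNA axis and 0.39 on the footprint axis, and Col12a1 above it.

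The TE of 5 of 32 collagens fell in DRG (15.6%, against 3.21% of all 12710 genes) and that of 1 rose (3.13%, against 4.22%). Of the 32 estimates 23 were below 0 and 9 above, with a median of -0.04. The 5 that fell were Col5a3, Col5a2 and Col3a1 of the fibrillar class, Col4a1 and Col6a1.

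Col5a3 had the largest change. Its log2 TE was -0.71 and -0.75 in the sham lysates and -1.56 and -1.63 in the SNI lysates (change -0.86, SE 0.0644, adjusted p = 8.1e-38, edgeR interaction of surgery and assay). The call held without any 1 of the 4 lysates, in DESeq2 (adjusted p = 2.2e-13), against a 1.5-fold change (0.0011) and with a fixed coefficient of variation of 0.1 (0.0417), and was lost in limma on the deposited ratios (0.14). Col5a2 had a log2 TE of 0.81 and 0.51 in sham and 0.28 and 0.31 in SNI lysates (-0.34, adjusted p = 1.2e-05), and Col4a1 one of 1.19 and 1.13 against 0.95 and 0.91 (-0.23, adjusted p = 2.6e-04). Sham and SNI lysates did not overlap in any of these.

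For Col3a1 the log2 TE was 1.29 and 1.31 against 1.1 and 1.19 (-0.16, adjusted p = 0.0102), and for Col6a1 1.36 and 1.21 against 1.09 and 1.14 (-0.16, adjusted p = 0.0336). Col12a1, which binds along type I fibrils, had the 1 rise, from 1.94 and 1.96 to 2.11 and 2.23 (0.22, SE 0.047, adjusted p = 1.6e-04). Leaving out 1 lysate ended the call of Col5a2 (sham replicate 1, adjusted p = 0.0947), Col12a1 (SNI replicate 2, 0.0758), Col3a1 (either sham replicate or SNI replicate 1, up to 0.168) and Col6a1 (sham replicate 1 or either SNI replicate, up to 0.499), and the change of Col5a2 then ran from -0.52 to -0.21. Without sham replicate 1 the members that fell were 3, Col5a3, Col4a1 and, newly called, Col18a1, and without SNI replicate 1 they were 3, Col5a3, Col5a2 and Col4a1. DESeq2 kept Col5a3 alone. The common coefficient of variation of the TE fit was 0.00988, below the 0.0430 of the footprint libraries alone. The DRG mRNA fit returned the same value to every digit, so it is not read here as a measured spread. The TE changes of Col18a1 (-0.26, adjusted p = 0.058), Col1a1 (-0.09), Col5a1 (-0.03) and Col1a2 (-0.03) were not called.

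**Figure D4:**
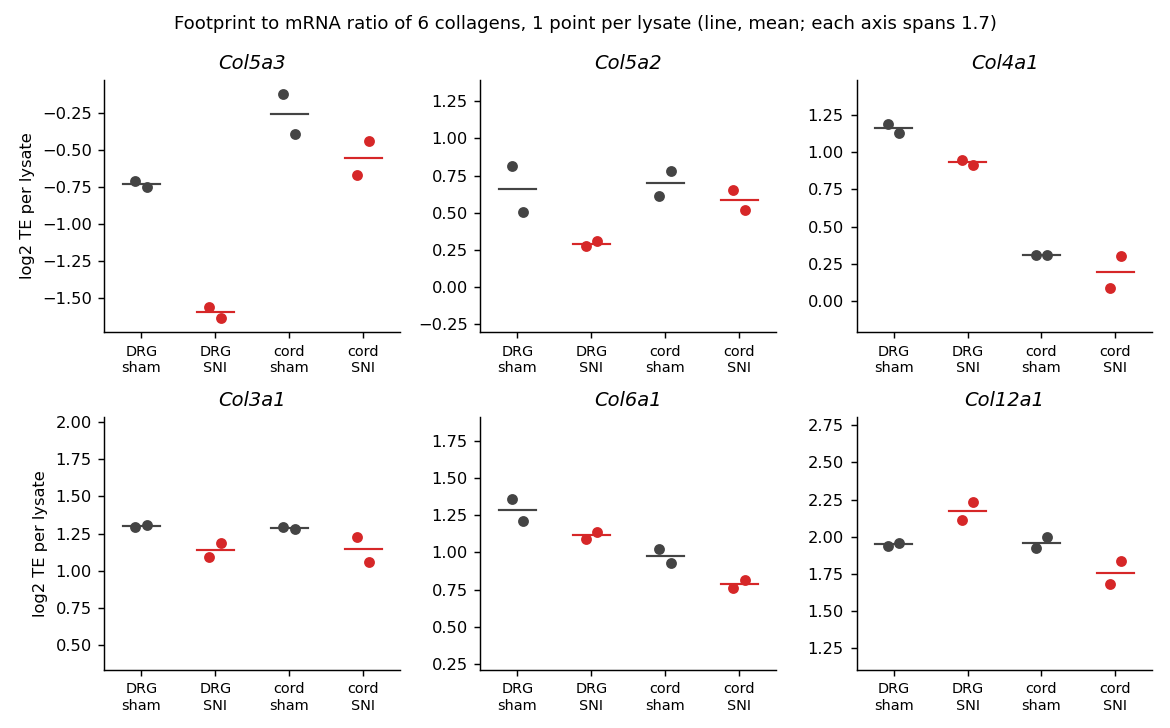
Log2 TE of each of the 6 collagens called in DRG, 1 point per lysate, for sham and SNI in DRG and spinal cord; the line of each group marks its mean of 2 lysates, and the axes start at different values but span the same range. In DRG the SNI lysates of Col5a3 lie at -1.56 and -1.63, below its sham lysates at -0.71 and -0.75, and those of Col12a1 lie above its sham lysates.

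The chains of one molecule were compared per kb within each library, as a description without a test. Col5a3 over Col5a1 was 4.0 and 3.72 in the mRNA of sham DRG and 6.69 and 6.81 in SNI DRG, while in footprints it was 1.19 and 1.12 against 1.22 and 1.07 and the groups overlapped. Col1a1 over Col1a2 was 0.685 and 0.702 in sham and 0.735 and 0.729 in SNI DRG mRNA, and 0.949 and 0.955 against 0.956 and 0.970 in DRG footprints. The mRNA of Col1a2 thus exceeded that of Col1a1 per kb, and their footprint densities were nearly equal. In spinal cord footprints Col1a1 was the higher one, at 1.13 and 1.13 in sham and 1.24 and 1.18 in SNI. Col4a1 over Col4a2 was 1.35 and 1.46 against 1.48 and 1.42 in DRG mRNA, with overlap, and 1.88 and 1.82 against 1.79 and 1.76 in DRG footprints.

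Footprint density over mRNA density, that is footprints per kb of coding sequence over mRNA per kb of transcript, varied widely among the collagens in sham tissue. Its median over the 32 members was 2.35 in DRG, against 1.87 over 12381 coding genes, and over 28 members 2.31 in spinal cord, against 1.90 over 11607 coding genes. In DRG the highest ratios were those of Col12a1 (4.83), Col14a1 (4.61) and Col1a1 (4.17), all 3 above the 90th percentile of coding genes. Below the 10th percentile were 6 members, Col24a1 (0.201), Col27a1 (0.216), Col16a1 (0.566), Col5a3 (0.706), Col11a2 (0.720) and Col4a4 (0.721). In spinal cord Col1a1 was highest at 7.32, followed by Col12a1 at 4.88 and Col1a2 at 4.18.

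The ratio of Col5a3 was 0.716 and 0.697 in sham DRG and 0.399 and 0.379 in SNI DRG. Within the fibrillar class the ratio ran from 0.201 to 4.17. Col24a1 and Col27a1 at the low end are also the fibrillar chains with the shortest helix: counted from the coding sequence, their longest unbroken runs of Gly-X-Y triplets were 216 and 217, against 337 to 344 in the other 9. Across the 32 members in DRG the ratio had a Spearman correlation of -0.21 with the share of codons in such runs, 0.08 with coding length and -0.26 with the length of the 5′ untranslated region. The Pearson correlations with the log2 ratio were -0.28, 0.13 and -0.45. Over 26 members the ratios of sham DRG and sham spinal cord had a Spearman correlation of 0.84, across genes that share transcript lengths and base composition. Levels between genes depend on the transcript chosen for the length.

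**Figure D5:**
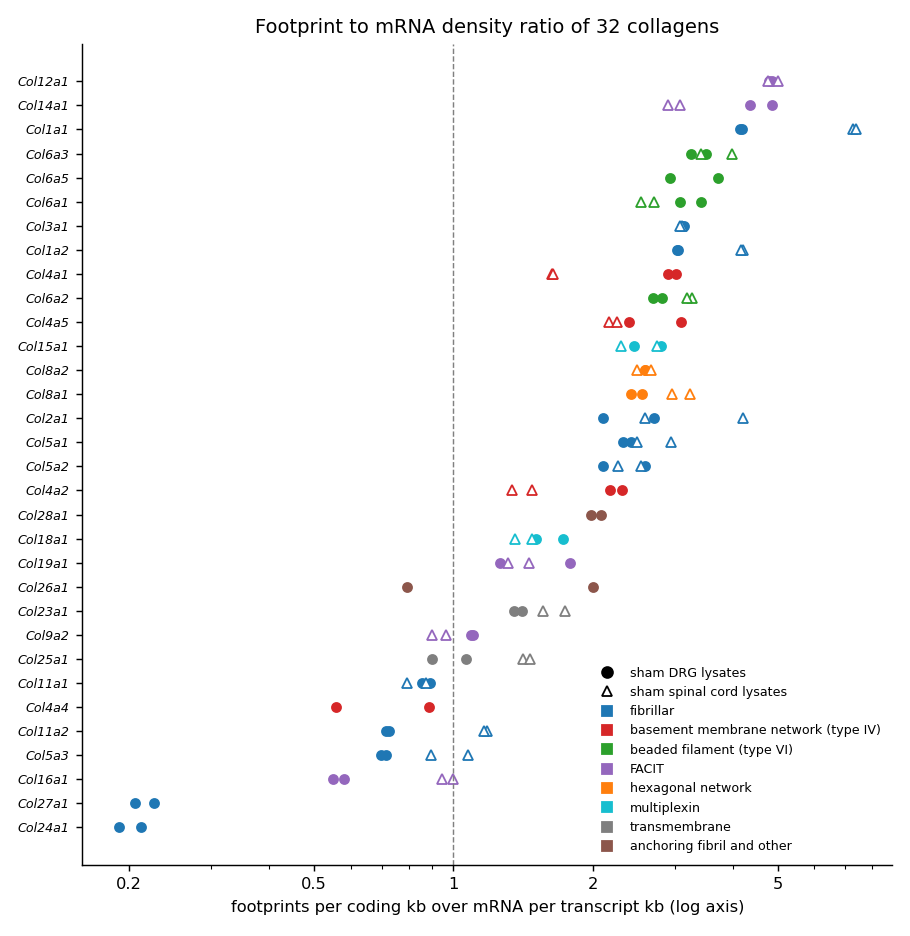
Ratio of footprints per coding kb to mRNA per transcript kb in sham lysates, on a log axis, for the 32 collagens tested in DRG, ordered by their mean in DRG; filled circles are DRG lysates, open triangles spinal cord lysates of members tested there, colours the classes and the dashed line a ratio of 1. In DRG Col24a1 (mean 0.201) and Col27a1 (0.216) lie lowest and Col12a1 (4.83) highest.

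In spinal cord few collagens changed. Of 38 members tested in mRNA, 4 rose (10.5%, against 2.09% of all 14723 genes) and 1 fell (2.63%, against 1.96%). Col24a1 rose from 3.09 and 2.77 to 4.20 and 4.64 CPM (log2 change 0.58, adjusted p = 0.0234) and Col16a1 from 16.9 and 18.6 to 21.3 and 22.6 CPM (0.31, adjusted p = 0.0035). Col6a1 rose from 36.6 and 37.5 to 42.8 and 43.1 CPM (0.21, adjusted p = 0.0065) and Col1a1 from 104 and 103 to 111 and 118 CPM (0.14, adjusted p = 0.0092). All 4 also rose in DRG. Col23a1 fell from 29.6 and 31.9 to 27.1 and 26.1 CPM (-0.20, adjusted p = 0.0340). The pools did not overlap in any of the 5. Without SNI replicate 2, 0 members rose and 0 fell, without sham replicate 1, 1 rose, and without SNI replicate 1, 0 fell. At an unadjusted p under 0.05 the full set gave 10 up and 5 down, and DESeq2 called 0 up and 0 down.

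In spinal cord footprints 28 members were tested, 0 rose (against 1.21% of all 12018 genes, with 0 up at an unadjusted p under 0.05 and 0 in DESeq2) and 1 fell (3.57%, against 1.03%). That was Col12a1, from 113 and 117 to 88.0 and 93.3 CPM (-0.34, SE 0.051, adjusted p = 1.0e-04), which DESeq2 called too. Its spinal cord mRNA was 29.6 and 29.2 against 27.5 and 26.1 CPM (-0.13, not called), and its log2 TE 1.93 and 2.00 against 1.68 and 1.84. Whether its footprint changes differ between DRG and spinal cord was not tested. In TE, edgeR called 0 of 28 members up (against 0.169% of all 11865 genes) and 0 down (against 0.0843%), DESeq2 also called none, and 5 fell and 0 rose at an unadjusted p under 0.05. Of the 28 estimates 21 were below 0. The log2 TE of Col5a3 was -0.13 and -0.39 in sham and -0.67 and -0.44 in SNI cord (-0.30, SE 0.24), on fewer reads than in DRG.

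The mRNA response was then compared between the tissues within 1 model. For 16 of 41 members (39.0%, against 6.35% of all 16716 genes) the log2 change was higher in DRG than in spinal cord, and for 1 (2.44%, against 7.23%) it was lower. Among the members called, the largest differences were those of the type V chains: 1.21 (SE 0.11, adjusted p = 2.3e-12) for Col5a3, 0.64 (SE 0.11) for Col5a1 and 0.59 (SE 0.090) for Col5a2. Col5a3 stayed at 7.94 and 7.64 CPM in sham and 8.62 and 7.57 CPM in SNI cord, and Col5a1 was at 10.3 and 11.1 against 9.26 and 9.68 CPM. Col26a1 was the next called (0.59, SE 0.20, adjusted p = 0.043), at 8.39 and 8.18 against 7.17 and 8.06 CPM in cord. Col13a1, at few reads, had a difference of 1.00 that missed the threshold (SE 0.39, adjusted p = 0.084, and 0.0437 without DRG SNI replicate 2). Of the type VI chains, Col6a2 (0.17, adjusted p = 0.053) and Col6a1 (0.15, adjusted p = 0.10) missed the threshold. Without the spinal cord SNI replicate 1 the 16 became 10. Col11a1 had the lower response in DRG, with 57.5 and 60.4 against 57.5 and 58.0 CPM there and 29.2 and 30.1 against 33.1 and 34.0 CPM in cord (difference -0.20, adjusted p = 0.045), a call lost in 6 of the 8 fits without 1 lysate, those without DRG sham replicate 1 or spinal cord sham replicate 2 excepted.

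The proteins that make and bind collagen were examined by lists. Of 20 folding and modifying enzymes 11 rose in DRG mRNA, where 15.9% of all genes rose, led by the chaperone Fkbp10 (0.36), the prolyl 3-hydroxylase P3h1 (0.29) and the lysyl hydroxylase Plod3 (0.29). The list's median was 0.12. In DRG footprints 2 of the 20 rose, a share near the 8.4% of all genes. They were Serpinh1, the collagen chaperone HSP47 (0.15), and P4hb (0.11). TE fell for 1 of the 20, Plod3 (-0.19), against 3.21% of all genes. In spinal cord 1 of 20 fell in mRNA (against 1.96% of all genes) and 1 of 19 in footprints (against 1.03%). Both calls were of P4ha1, a prolyl 4-hydroxylase subunit (-0.19 in mRNA and -0.26 in footprints).

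Of 12 tested proteins of procollagen cleavage and crosslinking, 5 rose and 2 fell in DRG mRNA, against 15.9% and 17.0% of all genes, so the falls were near the background. The crosslinking enzyme Loxl2 changed most (1.49), followed by Bmp1, the procollagen C-proteinase (0.66), and Loxl3 (0.38), while its relative Tll1 (-0.51) and Pcolce2 (-0.18) fell. In footprints Adamts14 (0.94), Bmp1 (0.36) and Pcolce (0.27) led 4 rises among 11 tested (8.4% of all genes rose). Tll1 was the 1 of the 11 that fell (-0.68), a share near the 8.28% of all genes. In TE 1 of 11 fell, Bmp1 by 0.33 on the log2 scale, against 3.21% of all genes. Of 9 collagen receptors tested, 4 rose in DRG mRNA (against 15.9% of all genes), led by Ddr2 (0.38), Itga1 (0.27) and Itgb1 (0.20). Lair1 led 4 rises among the 9 in footprints (0.69, against 8.4% of all genes rising). In TE 1 of the 9 fell, Ddr1 (-0.21), against 3.21% of all genes. Of 8 receptors tested in spinal cord mRNA, 1 rose, Lair1 (0.38), against 2.09% of all genes.

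Of 14 tested collagen-binding proteoglycans and glycoproteins, 9 rose in DRG mRNA, where 15.9% of all genes rose, led by Thbs2 (0.31), Thbs1 (0.27) and Bgn (0.24). In footprints 13 of the 14 rose, against 8.4% of all genes, led by Thbs2 (0.39), Postn (0.36) and Aspn (0.34). TE rose for 2 of the 14, against 4.22% of all genes. They were Dcn (0.19) and Ogn (0.16), which regulate fibril growth. In spinal cord mRNA 3 of 14 fell, Dcn (-0.16), Fmod (-0.17) and Sparc (-0.08), against 1.96% of all genes. In spinal cord footprints 3 of 13 fell, Dcn (-0.20), Fn1 (-0.17) and Sparc (-0.13), against 1.03%.

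Several members were barely present. In DRG mRNA Col10a1, Col13a1, Col17a1, Col20a1, Col4a6, Col6a4, Col6a6 and Col9a1 had 0 to 45 reads per library, and in spinal cord mRNA Col10a1, Col17a1, Col4a3, Col4a4, Col6a5 and Col9a1 had 0 to 37. In footprints 12 members in DRG (0 to 48 reads per library) and 16 in spinal cord (0 to 35) were under the minimum. These members were not tested for a change in the assay and tissue named, apart from a fit without a minimum, in which Col10a1 fell in DRG footprints (-0.93, adjusted p = 0.0318). Col10a1 overlaps Nt5dc1, Col18a1 overlaps Slc19a1 and Col9a3 overlaps Tcfl5, so that reads in the overlaps could belong to either gene.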

How the data were processed

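Per the submitters' notes and the study's methods, the authors discarded reads of rRNA and tRNA (Bowtie 1.1.2), mapped what remained to GRCm38.p5 (STAR 2.5.2b) and tallied them by gene in HTSeq (version not given in the sources used here). The deposited table holds these counts, RPKM made by the authors with a gene length, and TE, the authors' ratio of footprint to mRNA RPKM per lysate. Only counts entered the main tests, since 2.34% of 11327 genes had a deposited RPKM within 5% of the RPKM computed from their own exonic length. All 16 libraries were mapped by label and 0 other columns of samples were left unused.

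Counts were tested on the whole table in edgeR 4.0.16 (R 4.3.3, quasi-likelihood). TMM was computed within assay over the libraries fitted. Fits within a tissue had surgery only, and tissue contrasts had tissue, surgery and their interaction. Genes needed a sum of 128 reads or more in the 4 libraries fitted per assay (8 for tissue contrasts). Benjamini-Hochberg adjustment was over all genes, with a threshold of 0.05. Printed CPM were scaled within assay and tissue, so between tissues they differ slightly from the scale of the tissue contrasts. TE was the surgery by assay interaction with 1 term per lysate, and log2 TE per lysate added 0.5 reads. The tests were run on simulated data with 200 changed genes, in which libraries varied independently and all by the same amount. That amount was below the spread of the DRG footprint libraries, so the simulation does not cover them. Replicates are separate pools by the study's methods, and p-values measure the spread between their libraries. The gene family described, its members and the lists were chosen with earlier results of these data known, although the symbol rule uses no values. Values in every library are given for the 3 most abundant members of each class, those called in TE, the 6 largest mRNA changes called in each direction and the 4 largest differences between tissues; up to 3 genes per pathway list, by size of change. Other members are named to account for them. Alternatives used DESeq2 1.42.0, limma 3.58.1, other filters, scalings, samples and thresholds. Start windows came from the GRCm38 annotation and promoters from RefSeq. The result of 1 marker list is not reported here.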

Additional observations from a re-analysis of the deposited data

Results flagged for a closer look

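In 17 collagens the log2 change of mRNA after SNI differed between DRG and spinal cord by the interaction test in edgeR (adjusted p under 0.05). The difference, DRG minus spinal cord, was 1.21 for Col5a3, 0.64 for Col5a1, 0.59 for Col5a2, 0.59 for Col26a1, 0.58 for Col18a1, 0.45 for Col14a1, 0.44 for Col8a1, 0.43 for Col4a1 and 0.40 for Col3a1. It was 0.39 for Col8a2, 0.35 for Col27a1, 0.31 for Col4a2, 0.28 for Col15a1, 0.24 for Col23a1, 0.20 for Col1a2, 0.15 for Col1a1 and -0.20 for Col11a1. Col11a1, Col14a1, Col15a1, Col1a1, Col23a1, Col26a1, Col27a1 and Col8a2 lost the call without some 1 lysate and in DESeq2. Groups of 2 pools were too small for a search for outlying samples.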

How the results depend on the processing

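Counts of members called moved with the estimate of spread and with the threshold. With a fixed coefficient of variation of 0.1, 4 rose and 0 fell in DRG mRNA, 1 rose in DRG footprints, 0 rose and 1 fell in DRG TE, 0 rose and 0 fell in spinal cord mRNA, 0 fell in spinal cord footprints, and 1 was higher and 0 lower in DRG in the difference between tissues. Against a 1.5-fold change these counts were 2 and 0, 0, 0 and 1, 0 and 0, 0, and 1 and 0. DESeq2 gave 0 down in DRG mRNA, 0 up and 1 down in DRG TE, and 0 and 0 in spinal cord mRNA. For the difference between tissues it gave 9 and 0. It lost the DRG mRNA rises of Col2a1, Col8a2, Col14a1 and Col26a1. Lost as well were the DRG footprint rises of Col4a1, Col14a1, Col15a1 and Col16a1. limma on the deposited TE called 0 up and 0 down in DRG. The fall of Col12a1 mRNA in DRG (1 gene) went to 0 in 4 settings (DESeq2 aside): no TMM factors, no filter, the read minimum in every library and both tissues in 1 fit, and the lower response of Col11a1 to 0 without TMM factors and without a filter. With no filter 1 member, Col10a1, fell in DRG footprints (-0.93), with the read minimum in every library 1 member was lower in sham DRG than in sham spinal cord, and with both tissues in 1 fit 2 fell in spinal cord mRNA. No direction reversed in any alternative.

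Leaving out 1 lysate at a time gave 20 to 22 up and 0 to 1 down in DRG mRNA, 17 to 18 up in DRG footprints, 0 to 1 up and 3 to 4 down in DRG TE, 0 to 5 up and 0 to 1 down in spinal cord mRNA, 10 to 15 higher and 0 to 1 lower in DRG in the difference between tissues, and 26 to 27 higher and 8 to 9 lower for the sham levels. Where an arm then held 1 pool, it was assumed to vary like the others.

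Deviations of same-numbered samples were close to uncorrelated in DRG mRNA (0.043), spinal cord mRNA (0.003) and spinal cord footprints (-0.031). In DRG footprints, which enter the DRG TE, they shared a part (correlation 0.212). The source of that part was not tested. With the number as a replicate block, 7 members fell in DRG TE, 6 rose and 2 fell in spinal cord mRNA and 17 differed upward between tissues, and the 108 member calls were kept. Without TMM factors 63.3% of all calls in DRG mRNA were rises (48.3% with TMM), 62.0% in DRG footprints (50.3%) and 58.1% in the difference between tissues (46.8%). Depth limited the members under the read minimum, most of all in the spinal cord footprints.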
